A study of Mus musculus with 22 samples.

Results

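Cytokines act on airway epithelial cells (ECs) through receptor chains, Janus kinases (JAKs), STAT transcription factors and a set of inhibitors, and 47 genes of this pathway were followed in lung ECs of mice with and without the aryl hydrocarbon receptor (AhR) or the cytochrome P450 enzyme CYP1B1. The genes are listed by name for their place in the pathway: 23 receptor chains, the 4 JAKs, 6 STATs and 14 inhibitors. All 47 were present among the 54373 genes of the count tables, of which 21793 are protein-coding. From general knowledge, 11 of the 47 are used mainly by leukocytes (Il2ra, Il2rb, Il2rg, Il7r, Il10ra, Il21r, Csf2rb, Crlf2, Jak3, Stat4 and Ptpn6), and they are kept apart from the other 36 below.

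Bulk RNA-seq was available for 22 samples of lung cells sorted as live CD45-EpCAM+ singlets, that is, without the pan-leukocyte surface protein CD45 and with the epithelial adhesion protein EpCAM; the study's text adds that the cells were CD31-, that is, without an endothelial surface protein. Naive (steady state) samples came from WT (n = 4), AhR-/- (n = 3) and CYP1B1-/- (n = 3) mice. The samples named HDM came from mice of the same 3 genotypes (n = 4 each) that had been sensitized to and challenged with house dust mite extract through the nose, a model of allergic airway inflammation. WT animals were C57BL/6 and both knockouts were backcrossed to that strain. By description the knockouts are of the whole animal, leukocytes included, but the reads of the targeted genes given below do not show it. The labels give neither age nor sex per sample. The labels also do not say which samples came from separate animals, so the p-values measure only the spread between these samples.

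As background, a cytokine brings its receptor chains together, the JAKs bound to their tails phosphorylate them and each other, and STAT proteins that dock there are phosphorylated, move to the nucleus and switch on genes. IL-4 and IL-13, the cytokines of allergic inflammation, use Il4ra and Il13ra1 with Jak1 and Tyk2 and act through Stat6. IL-6, LIF and oncostatin M share the chain gp130 (Il6st) and act mainly through Stat3. SOCS proteins and Cish are induced by STATs and shut the receptors down again, PIAS proteins restrain STATs in the nucleus, and the phosphatase Ptpn6 removes the phosphates.

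Library totals ran from 9654825 to 17878442 counts. The predicted gene Gm10800 took 9.54 to 29.2% of the counts in naive libraries and 0.00819 to 71.9% in HDM libraries, so that 3 counts, taken as the floor of detection, corresponded to 0.107 to 1.36 CPM (counts scaled to the effective size of the library). The 5 HDM libraries in which it took 62.7 to 71.9% (WT library 2, AhR-/- libraries 3 and 4 and CYP1B1-/- libraries 1 and 2) had the smallest effective sizes of all libraries and give the lowest value of their group for several genes below. Epcam was present throughout, with a mean between 108 and 206 CPM in every group, but other epithelial markers shifted with the state: of 6 markers, 5 passed the test as lower after HDM in WT (median log2 difference -1.64), 5 in CYP1B1-/- (-1.70) and 1 in AhR-/- mice (-0.97), and of 6 alveolar type 1 cell markers 5 (median -2.64), 6 (-3.16) and 0 (-1.14) passed the test as lower, in the same order. Of 8 alveolar type 2 cell markers, 3 in WT (median 1.42), 6 in CYP1B1-/- (2.95) and 5 in AhR-/- mice (2.36) were higher after HDM and none passed as lower. Leukocyte transcripts were present as well: the summed level of 14 leukocyte marker genes was 87.7 to 345 CPM in naive libraries, 1910 to 5960 CPM in WT HDM, 370 to 6020 CPM in CYP1B1-/- HDM and 231 to 1220 CPM in AhR-/- HDM libraries, with none of the 14 at 0. Of these 14 markers, 9 were significantly lower in AhR-/- than in WT HDM libraries (median log2 difference -2.41), as were 2 of 7 myeloid, 0 of 7 T and NK cell and 0 of 5 B cell markers. In the same comparison 2 of 6 epithelial markers (median 1.22) and 1 of 3 club cell markers (median 2.44) were higher, and the 6 alveolar type 1 markers had a median of 1.81 without passing the test. AhR-/- HDM libraries 3 and 4 also carried reads of Y-linked genes, which were near 0 in all other HDM libraries and at 66.6 to 250 CPM summed in naive ones. The AhR-/- HDM group was thus not uniform. In these 2 libraries the alveolar type 1 markers had a mean log2 CPM of 9.80 and 10.01 (naive 10.05 to 10.63, other HDM 5.18 to 9.21). For type 2 markers it was 6.57 and 7.39 (naive 6.055 to 7.78, other HDM 7.72 to 9.98). For the 14 leukocyte markers it was 3.44 and 3.23 (naive 0.28 to 4.14, other HDM 3.99 to 8.16). The cause was not tested. Reads of the targeted genes were not reduced in the libraries named for their deletion: Ahr was at 12.8 to 25.5 CPM in AhR-/- HDM against 9.62 to 20.0 CPM in WT HDM libraries, and Cyp1b1 at 4.98 to 13.5 CPM in CYP1B1-/- HDM against 0.897 to 2.31 CPM in WT HDM libraries. Whether the deleted exons are among those read cannot be seen in counts per gene, so the genotypes are those given by the labels.

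Levels of different genes were compared per kilobase of exon, as the mean CPM per kb over all groups. The interferon-gamma receptor chains Ifngr1 (59.1 CPM per kb) and Ifngr2 (32.1) were the highest receptors, and Pias1 (28.6), Stat6 (19.9) and Jak1 (15.7) led the inhibitors, STATs and kinases. Within groups this order was not fixed: Jak2 was above Jak1 in WT HDM samples (18.8 ± 6.48 against 15.9 ± 4.15 CPM per kb, SD, n = 4, overlapping), and Ptpn6 above Pias1 (65.8 ± 29 against 10.6 ± 1.79 CPM per kb). The IL-10 receptor family chain Il10rb (27.0), the phosphatase Ptpn6 (26.4), Il13ra1 (21.1) and Stat3 (12.2) were also in the upper range. At the other end, the IL-13 decoy receptor Il13ra2 (0.319) and the IL-22 receptor Il22ra1 (0.12) reached 3 counts in 17 and 11 of the 22 libraries, which leaves little precision for them; Il22ra1 passed no filter, and Il13ra2 passed that of the naive and joint fits but not that of the HDM libraries.

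HDM was followed by a broad shift in this pathway. In a joint fit of all 22 libraries (edgeR's quasi-likelihood test, Benjamini-Hochberg adjusted p at most 0.05 over 16639 genes), 46 members passed the low-count filter, and in WT mice 25 were higher and 3 lower after HDM, against 19% and 19.4% of all genes. In CYP1B1-/- mice 21 were higher and 9 lower (background 15.5% and 17.9%), and in AhR-/- mice 12 were higher and 8 lower (background 10.6% and 10.1%). The median log2 difference of the members was 1.01 in WT, 0.93 in CYP1B1-/- and 0.32 in AhR-/- mice, while that of all genes was -0.11, -0.02 and -0.05. Among the members not used mainly by leukocytes, of which 35 were tested, the median was 0.29 in WT, 0.37 in CYP1B1-/- and -0.36 in AhR-/- mice, with 14 called higher and 3 lower, 11 and 9, and 5 and 8. Of the 11 genes used mainly by leukocytes, 11 rose in WT (median 3.74), 10 in CYP1B1-/- (3.77) and 7 in AhR-/- mice (2.17), and the leukocyte marker level given above rose with them. With that level in the model 0 members were called in WT, 10 in AhR-/- and 0 in CYP1B1-/- mice, and the AhR-/- count of 20 ranged from 9 (without AhR-/- naive library 3 or 4) to 21 when 1 library was left out. Not all of the log2 differences became small in that model. Il6st went from -1.63 to -1.75 in WT (adjusted p = 0.219) and from -1.84 to -1.97 in CYP1B1-/- mice (adjusted p = 0.0826). In the same order Csf2ra was at 0.0689 and -0.60 and Csf2rb at 0.43 and 0.13. Naive and HDM libraries were deposited as separate tables, so the state of the mice cannot be told apart from any difference in how the 2 sets were prepared and sequenced. Y-linked genes separated the states too. Of these, 4 of 4 were lower after HDM in WT (median -10.3) and in CYP1B1-/- mice (-10.1). In AhR-/- mice 0 of 4 passed the test (-1.27). With the Y-linked level in the model 0, 1 and 6 members were called in WT, CYP1B1-/- and AhR-/- mice. Sex, which the labels do not give, can therefore also not be told apart from state in WT and CYP1B1-/- mice. It may be mixed in the AhR-/- HDM group. In bulk samples a change in the share of a cell type cannot be told apart from a change in its RNA.

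**Figure D1:**
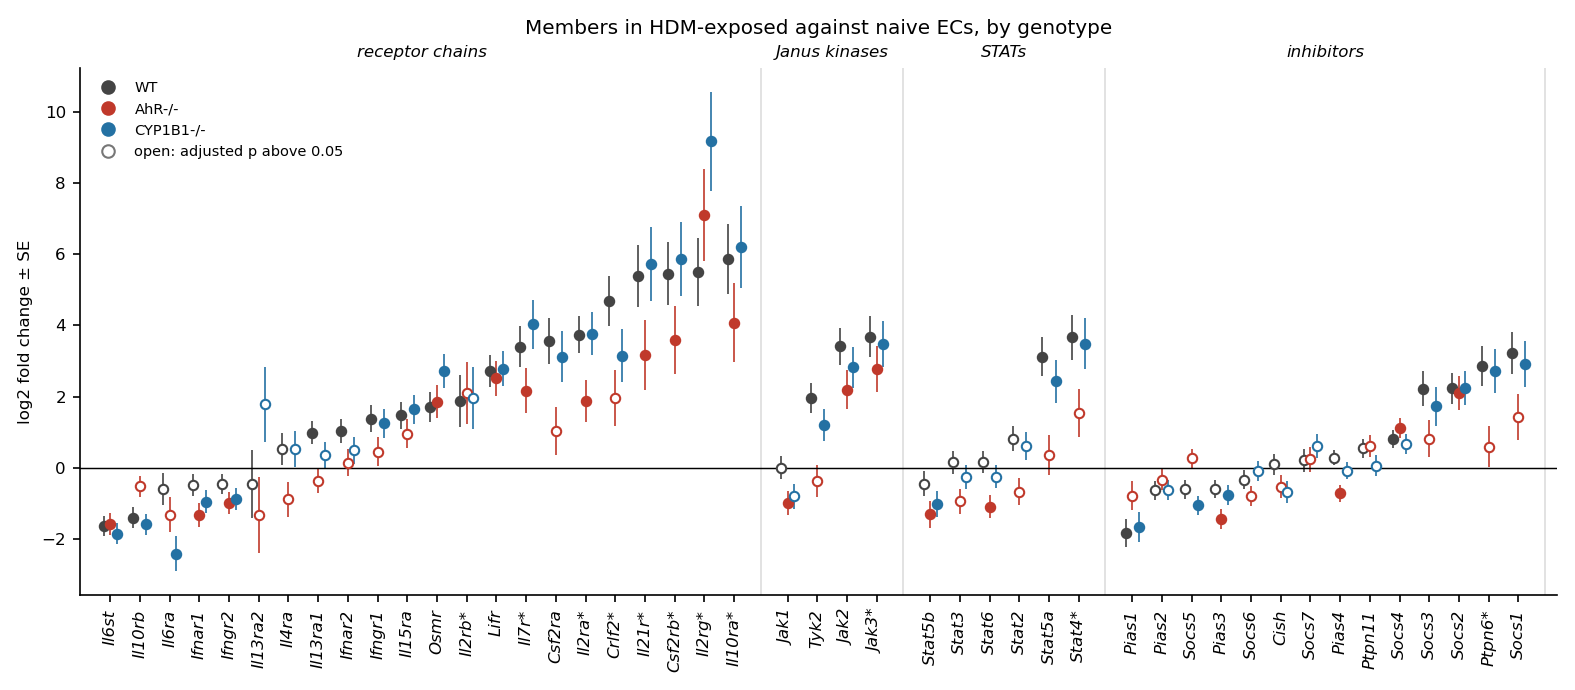
Log2 fold change (y axis, bars are standard errors) between HDM and naive libraries for the 46 members tested (x axis, by class), in WT (dark grey), AhR-/- (red) and CYP1B1-/- (blue) mice; open symbols did not pass the adjusted p of 0.05 and asterisks mark genes used mainly by leukocytes. In WT mice 25 genes lie above 0 and pass the test, while Il6st lies below 0 and passes in all 3 genotypes.

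Among receptors, Il2ra, the alpha chain of the IL-2 receptor, gave the lowest p in WT mice. It was at 0.418, 0.494, 1.02 and 0.368 CPM in WT naive and at 5.47, 5.07, 12.3 and 7.76 CPM in WT HDM libraries. The groups did not overlap, and the log2 difference was 3.74 ± 0.52 (SE; adjusted p = 1.36e-05), with 3.77 ± 0.59 in CYP1B1-/- mice. Crlf2, the receptor chain for TSLP, an alarm cytokine that ECs release, was at 0.656, 0.494, 0.542 and 0.736 CPM in WT naive and at 19.3, 5.07, 22.4 and 16.8 CPM in WT HDM libraries (log2 difference 4.69 ± 0.71). Every WT HDM library was thus above every naive one for both genes. Il2rg, the common gamma chain, gave the lowest p in both knockouts, rising to 43.4, 29, 11.8 and 5.65 CPM in AhR-/- HDM and to 31.7, 11, 120 and 132 CPM in CYP1B1-/- HDM libraries. The naive libraries of these knockouts held only 0 to 4 counts of Il2rg each, so that no fold is given, and 30.5% of its exons overlap another annotated gene on the same strand.

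The gp130 chain went the other way. Il6st was at 175, 177, 172 and 238 CPM in WT naive and at 73.8, 48.5, 68 and 56 CPM in WT HDM libraries, a log2 difference of -1.63 ± 0.29. In AhR-/- mice it was at 144, 175 and 207 CPM naive against 58.5, 44.3, 66 and 66.3 CPM after HDM (-1.58 ± 0.30, adjusted p = 0.00153), and in CYP1B1-/- mice at 238, 236 and 174 against 35.9, 45.8, 60.9 and 97.8 CPM (-1.84 ± 0.30). No HDM library reached the lowest naive library in any genotype, and Il6st was the only member called lower in all 3. Its partner chains Lifr and Osmr, which bind LIF and oncostatin M, were called higher in all 3 genotypes. Osmr rose from 5.13, 5.93, 4.94 and 3.13 CPM to 19.1, 19.5, 10.3 and 13.5 CPM in WT mice, and Lifr from 2.81 to 4.95 CPM to 14.5 to 35.3 CPM. Stat3, the main STAT of this arm, was at 102, 96.5, 112 and 153 CPM in WT naive and at 151, 85, 153 and 131 CPM in WT HDM libraries, which overlapped (log2 difference 0.17 ± 0.32, adjusted p = 0.725).

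Of the interferon receptors, Ifngr1 was at 111, 104, 98.5 and 132 CPM in WT naive and at 434, 191, 254 and 281 CPM in WT HDM libraries, with no overlap, and was called higher in WT and CYP1B1-/- mice. Ifngr2 and the type I interferon chain Ifnar1 were called lower in AhR-/- and CYP1B1-/- mice but not in WT. In CYP1B1-/- mice Ifngr2 went from -0.87 to -0.47 without naive library 2 (adjusted p = 0.228). Ifnar1 went from -0.95 to -0.61 without HDM library 2 (adjusted p = 0.0992). In the IL-4 and IL-13 arm, Il13ra1 was called higher in WT mice alone, from 45.1, 48.6, 55.8 and 75.6 CPM to 143, 63.2, 118 and 122 CPM, with 1 HDM library inside the naive range (0.99 ± 0.33). Il4ra went from 35.4, 33.1, 36.6 and 44 CPM to 66.9, 27.4, 68.5 and 52 CPM without passing the test (0.53 ± 0.45, adjusted p = 0.385), with WT HDM library 2 below every naive one. Il13ra2 lay at 0.23 to 1.35 CPM in WT naive and at 0.0897 to 1.78 CPM in WT HDM libraries.

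All kinases except Jak1 were higher after HDM in WT mice. Jak2, which serves the receptors for GM-CSF, interferon-gamma and growth hormone, was at 8.53, 8.46, 10.8 and 7.55 CPM in WT naive and at 111, 52.8, 128 and 86.2 CPM in WT HDM libraries (3.42 ± 0.52). Jak2 and the leukocyte kinase Jak3 were called higher in all 3 genotypes. Tyk2, a partner of Jak1 at the receptors for IL-4 with IL-13 and for type I interferons, was called higher in WT (1.98 ± 0.42) and CYP1B1-/- mice (1.19 ± 0.45), but its log2 difference in AhR-/- mice was -0.36 ± 0.44. With the leukocyte marker level in the model the Tyk2 difference was -0.0536 in WT (adjusted p = 0.989) and -0.90 in CYP1B1-/- mice (adjusted p = 0.583). Without CYP1B1-/- HDM library 3 it was 0.77 in CYP1B1-/- mice (adjusted p = 0.197). The Jak2 difference in AhR-/- mice, 2.20, was 1.40 without AhR-/- HDM library 1 (adjusted p = 0.0521). Jak1 was at 99, 96.5, 105 and 155 CPM in WT naive and at 113, 73.8, 144 and 128 CPM in WT HDM libraries, which overlapped (0.01 ± 0.32), and was called lower in AhR-/- mice alone (-0.99 ± 0.34, adjusted p = 0.0444).

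Among STATs, Stat5a, which relays growth hormone, prolactin, GM-CSF and IL-2 family signals, was at 6.15 to 9.36 CPM in all naive libraries and at 46.6, 20, 104 and 75.1 CPM in WT HDM libraries. Stat5a and the IL-12 responsive Stat4 were called higher in WT and CYP1B1-/- mice. Stat5a had a log2 difference of 3.13 ± 0.55 in WT, 2.43 ± 0.60 in CYP1B1-/- and 0.37 ± 0.57 in AhR-/- mice. With the leukocyte marker level in the model that of Stat5a was -0.49 in CYP1B1-/- mice. In WT mice the lowest value of Stat5a over all settings run was 0.22. Stat5b, its close relative, was called lower in AhR-/- and CYP1B1-/- mice. In CYP1B1-/- mice its difference of -1.01 became -0.62 without CYP1B1-/- HDM library 2 or naive library 2 (adjusted p = 0.111 and 0.226). Stat6 was called in AhR-/- mice alone, where it fell from 93.4, 97.1 and 106 CPM to 45.6, 60.5, 33.7 and 46.5 CPM, with no overlap (-1.08 ± 0.33, adjusted p = 0.0218).

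Of 14 inhibitors, 5 were called higher and 1 lower after HDM in WT mice (background 19% and 19.4%). In CYP1B1-/- mice 4 and 3 were called (background 15.5% and 17.9%), and in AhR-/- mice 2 and 2 (10.6% and 10.1%). Socs2 was called higher in all 3 genotypes, Socs1, Socs3 and Ptpn6 in WT and CYP1B1-/- mice and Socs4 in WT and AhR-/- mice, whereas Pias1 was called lower in WT and CYP1B1-/-, Pias3 in AhR-/- and CYP1B1-/-, Pias4 in AhR-/- and Socs5 in CYP1B1-/- mice. In CYP1B1-/- mice the difference of Pias3 was -0.46 without HDM library 1 (adjusted p = 0.165). That of Socs5 was -0.62 without naive library 2 (adjusted p = 0.0839). Socs3, the inhibitor of the gp130 arm, was at 13.7, 12.8, 13.8 and 13.4 CPM in WT naive and at 77.2, 29.7, 86 and 58.8 CPM in WT HDM libraries (2.23 ± 0.49, adjusted p = 0.00102). With the level of Y-linked genes in the model the log2 difference of Socs3 was -0.28 in WT and -0.70 in CYP1B1-/- mice. Socs1, which blocks JAKs directly, went from 1.01 to 1.98 CPM up to 14.7, 5.58, 17.2 and 15.8 CPM (3.24 ± 0.59). For both genes the lowest WT HDM library was library 2, and it still lay above every WT naive one. Cish, the inhibitor first described in Stat5 signaling, did not pass the test in any genotype (0.11 ± 0.29 in WT mice, from 35.9, 42.9, 53.8 and 53.7 CPM to 47, 33.7, 84.8 and 35.5 CPM). Pias1, in contrast, fell from 259, 225, 284 and 251 CPM to 77, 72.1, 84.8 and 55.9 CPM in WT mice, without overlap (-1.81 ± 0.39). Pias3, which binds Stat3, fell in AhR-/- mice from 24.7, 24.2 and 24.9 CPM to 8.53, 9.7, 5 and 12.5 CPM (-1.43 ± 0.28, adjusted p = 0.00168).

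Because SOCS genes, Cish and Il7r are known to be induced or regulated through STATs, their promoters were read for the palindrome that STAT dimers bind, TTCNNNGAA. RefSeq windows on GRCm38.p6 (250 bases before to 50 after the start) were found for 37 of the 47 members, and 5 of these held the motif (Socs3, Cish, Il7r and the interferon receptor chains Ifnar1 and Ifnar2), or 13.5% against 8.47% of all 27025 windows. The STAT6 type of this palindrome, with 4 bases between TTC and GAA, was found in 2 members (5.41% against 6.99%), and GCGTG, the core bound by AhR with its partner, on either strand in 16 (43.2% against 32.5%). The windows of 3 feedback inhibitors and of Il7r are shown 5′ to 3′ on the strand of the gene, with each match to TTCNNNGAA in capitals, since these inhibitors differed in their response to HDM: Socs1 and Socs3 rose in WT mice and Cish did not pass the test. Socs3 lies at chr11:117969367-117969616 (minus strand), Socs1 at chr16:10785537-10785786 (minus), Il7r at chr15:9529877-9530126 (minus) and Cish at chr9:107296409-107296678 (plus), the last with 20 bases after the start.
Socs3: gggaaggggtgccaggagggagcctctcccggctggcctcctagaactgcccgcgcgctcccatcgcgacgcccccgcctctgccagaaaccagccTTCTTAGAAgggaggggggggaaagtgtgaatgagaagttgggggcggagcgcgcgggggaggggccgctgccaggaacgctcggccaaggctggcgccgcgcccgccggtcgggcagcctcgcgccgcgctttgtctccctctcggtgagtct
Socs1: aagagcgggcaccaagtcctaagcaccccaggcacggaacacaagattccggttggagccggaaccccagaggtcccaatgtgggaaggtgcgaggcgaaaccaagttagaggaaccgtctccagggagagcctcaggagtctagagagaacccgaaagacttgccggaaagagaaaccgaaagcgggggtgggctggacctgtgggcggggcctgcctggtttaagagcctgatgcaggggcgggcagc
Cish: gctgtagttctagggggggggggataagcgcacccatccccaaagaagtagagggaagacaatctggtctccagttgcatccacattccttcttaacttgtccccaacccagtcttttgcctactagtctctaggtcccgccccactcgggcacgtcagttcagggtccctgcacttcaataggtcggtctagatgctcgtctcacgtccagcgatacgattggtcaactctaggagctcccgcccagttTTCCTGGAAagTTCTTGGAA
Il7r: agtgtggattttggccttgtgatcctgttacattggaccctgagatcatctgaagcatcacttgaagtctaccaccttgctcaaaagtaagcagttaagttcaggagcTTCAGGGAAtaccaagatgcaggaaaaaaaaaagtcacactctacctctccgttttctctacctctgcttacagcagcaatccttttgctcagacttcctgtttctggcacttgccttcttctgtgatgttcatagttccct
Only the first listed RefSeq window of each gene was read. Relative to its start, the matches of Socs3 and Il7r lay upstream and the pair of Cish at the start, while the letters shown for Socs1 held none. In GENCODE the genes Socs3 and Cish begin farther upstream, at 117970047 and 107296026, so their windows lie inside the annotated gene. A match is a description of the letters and not evidence of binding.

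**Figure D2:**
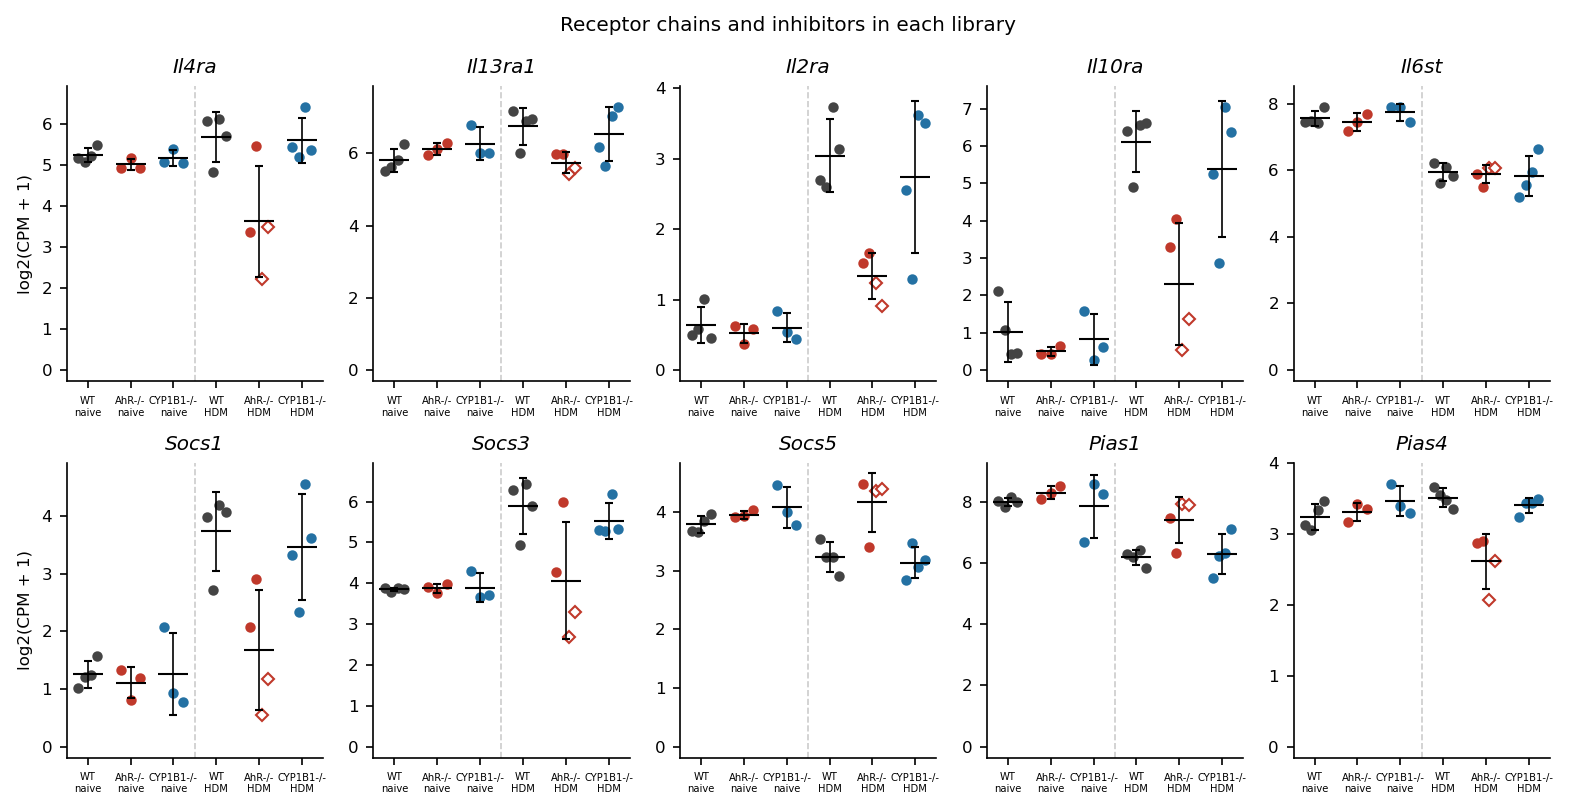
Level of 10 receptors and inhibitors in each library, as log2(CPM + 1), by genotype and state, with the group mean and SD as bars and with open diamonds for AhR-/- HDM libraries 3 and 4, which carried Y-linked reads. Il6st is lower in all HDM groups, and Pias1 is low in WT HDM libraries (55.9 to 84.8 CPM) and wide in AhR-/- HDM libraries (78.6 to 243 CPM).

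After HDM, members passed the test between AhR-/- and WT mice. Within the 12 HDM libraries, 45 members were tested (Il13ra2 and Il22ra1 did not pass the filter) and 22 differed between AhR-/- and WT (48.9%, against 22.1% of all genes tested): 3 were higher (background 9.22%) and 19 lower (background 12.9%) in AhR-/-. The median log2 difference of the 45 was -0.96, against -0.00 for all genes, and 39 of the 45 were below 0. By class, 1 of 21 receptors was higher and 8 lower, 3 of 4 kinases were lower, 5 of 6 STATs were lower, and 2 of 14 inhibitors were higher and 3 lower. The genes used mainly by leukocytes were called lower in 9 of 11 cases (median -2.33), and the other 34 were called higher in 3 and lower in 10 (median -0.75). These calls depended on single libraries: none of the members passed without AhR-/- HDM library 1, 3 or 4 or without WT HDM library 3 or 4, 7 passed without WT HDM library 1, and none passed with the leukocyte marker level in the model. Without AhR-/- HDM libraries 3 and 4 all 22 kept their direction (median of these 22 -1.31 in place of -1.91) at adjusted p of 0.202 to 0.324. Without the 5 HDM libraries with most Gm10800 reads, a setting chosen after seeing the data, 15 members were lower and 0 higher, all 22 again kept their direction (median -1.36), and Pias4 went from -0.96 to -0.57 (adjusted p = 0.164).

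**Figure D3:**
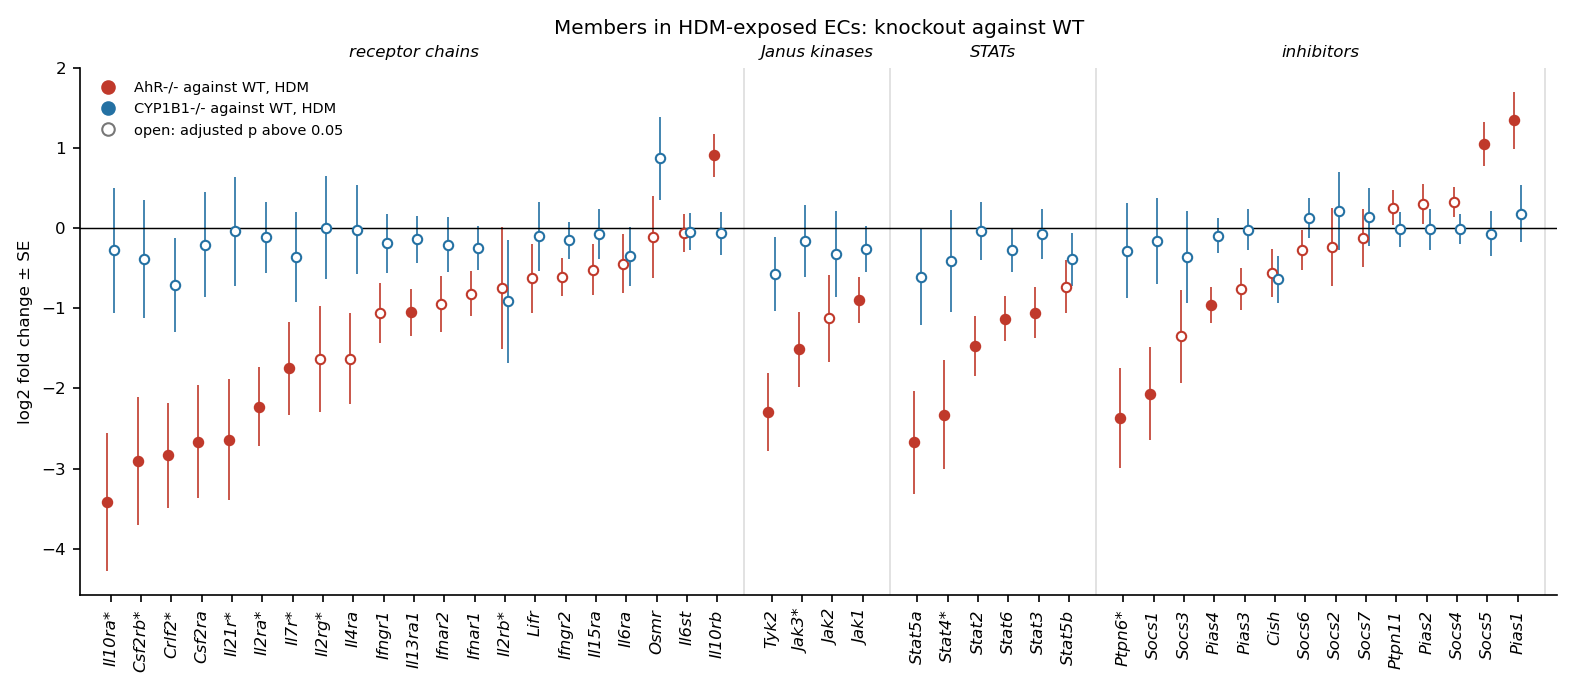
Log2 fold change (y axis, bars are standard errors) for the 45 members tested in HDM libraries (x axis, by class), for AhR-/- against WT in red and CYP1B1-/- against WT in blue; open symbols did not pass the adjusted p of 0.05 and asterisks mark genes used mainly by leukocytes. Of the red points 39 lie below 0, Pias1, Socs5 and Il10rb pass above 0, and every blue point is open.

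Of the receptors, Il10ra, the ligand-binding chain for IL-10, had the largest log2 difference of the 45 members. It was at 83, 28.9, 93.9 and 96.5 CPM in WT HDM and at 8.89, 15.5, 0.455 and 1.59 CPM in AhR-/- HDM libraries, without overlap and lowest in the libraries with Y-linked reads (-3.42 ± 0.86, adjusted p = 0.0269). Il2ra was at 1.86, 2.15, 1.36 and 0.884 CPM in AhR-/- HDM libraries, all below the lowest WT HDM library (-2.23 ± 0.49, adjusted p = 0.0261). Crlf2 was at 1.29, 5.07, 0.91 and 0.707 CPM in AhR-/- HDM libraries, the highest of which equaled the lowest in WT (-2.83 ± 0.66, adjusted p = 0.0261). Csf2ra, the ligand-binding chain for GM-CSF, was at 46.1, 28.9, 87.8 and 83.1 CPM in WT HDM and at 9.96, 20.2, 3.18 and 4.42 CPM in AhR-/- HDM libraries (-2.66 ± 0.70, adjusted p = 0.0285). Of these 4 chains, named for their low p, Csf2ra alone is not in the leukocyte group. With the leukocyte marker level in the model its log2 difference was -0.42 (adjusted p = 0.807). In AhR-/- HDM library 3, the shallowest by effective size, the values of Il10ra (1 count), Crlf2 (2 counts), Socs1 (1 count) and Stat4 (0 counts) lay below the floor of 3 counts, so the size of their differences is uncertain. The other receptors called lower were Csf2rb (-2.90, with a near-identical paralog that makes its counts uncertain), Il21r (-2.64), Il7r (-1.75) and Il13ra1 (-1.05), and Il10rb was higher (0.91 ± 0.27, adjusted p = 0.0347), with 14.9% of its exons shared with another annotated gene on the same strand.

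Of the receptor chains and the STAT of the IL-4 and IL-13 arm, Il13ra1 and Stat6 were called lower, as were its kinases Jak1 and Tyk2, given below. Il13ra1 was at 62.7, 62, 41.9 and 47.5 CPM in AhR-/- HDM libraries, just below the lowest WT HDM library at 63.2 CPM. With the leukocyte marker level in the model its log2 difference went from -1.05 to -0.29 (adjusted p = 0.817). Il4ra was at 9.28, 43.4, 3.64 and 10.2 CPM, with library 2 inside the WT range, and did not pass the test (-1.63 ± 0.57, adjusted p = 0.0566). Its difference was -2.73 without that library (adjusted p = 0.00656), and edgeR's likelihood ratio test, DESeq2 and limma voom called it lower. With the leukocyte marker level in the model it was -0.71. Il13ra2 had 0, 9, 0 and 3 counts in AhR-/- HDM and 2, 7, 2 and 10 counts in WT HDM libraries, too few for a comparison. Stat6 (chr10:127642986-127660957, GRCm38), the STAT of this arm, was at 110, 70.3, 134 and 96.8 CPM in WT HDM and at 45.6, 60.5, 33.7 and 46.5 CPM in AhR-/- HDM libraries, without overlap (-1.13 ± 0.28, adjusted p = 0.0267). In the model with the leukocyte marker level its log2 difference was -0.44 (adjusted p = 0.774). In the gp130 arm, Il6st did not differ beyond the spread (-0.06, adjusted p = 0.894), whereas Stat3 was called lower (-1.05), at 70.5, 98, 28.7 and 52.3 CPM in AhR-/- HDM libraries, with library 2 above the lowest WT HDM library. Socs3 was at 18.3, 62.4, 5.46 and 8.84 CPM, again with library 2 inside the WT range, and did not pass the test (-1.35 ± 0.58, adjusted p = 0.107). It was called lower without that library (-2.47, adjusted p = 0.00656) and by limma voom.

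Tyk2 (chr9:21104068-21131243) gave the lowest p of all members. It was at 74.9, 37, 104 and 71.8 CPM in WT HDM and at 15.7, 22, 8.64 and 10.8 CPM in AhR-/- HDM libraries, without overlap, and only AhR-/- HDM library 2 lay within the range of the naive libraries (16.4 to 24 CPM), the other 3 being below it, a log2 difference of -2.29 ± 0.49 (adjusted p = 0.0261). Jak3 (-1.51, and -2.39 without AhR-/- HDM library 2) and Jak1 (-0.90) were called lower as well. Jak2 was at 98.5, 30.7, 25 and 19.1 CPM in AhR-/- HDM libraries, the first of which lay among the WT HDM libraries, and did not pass the test (-1.12, adjusted p = 0.148). Stat5a was at 13.4, 15, 5.46 and 3.18 CPM in AhR-/- HDM libraries, all below the lowest WT HDM library at 20 CPM (-2.67 ± 0.64, adjusted p = 0.0261). Stat2, which relays type I interferon signals, was at 33, 19.8, 42.8 and 32.8 CPM in WT HDM and at 17.2, 13.5, 5.46 and 9.01 CPM in AhR-/- HDM libraries (-1.47 ± 0.37, adjusted p = 0.0272). Both STATs were thus lower in every AhR-/- HDM than in every WT HDM library. With the leukocyte marker level in the model the log2 difference was -0.72 for Tyk2, -0.64 for Stat5a and -0.37 for Stat2 (adjusted p = 0.774, 0.774 and 0.784). Against naive libraries, Stat5a in AhR-/- HDM libraries 1 and 2 lay above every one (6.15 to 9.36 CPM) and Stat2 in library 1 within the naive range (16.3 to 21.9 CPM). Stat4 was called lower (-2.33; 26.7% of its exons overlap another gene) and Stat5b did not pass the test (-0.73, adjusted p = 0.127).

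**Figure D4:**
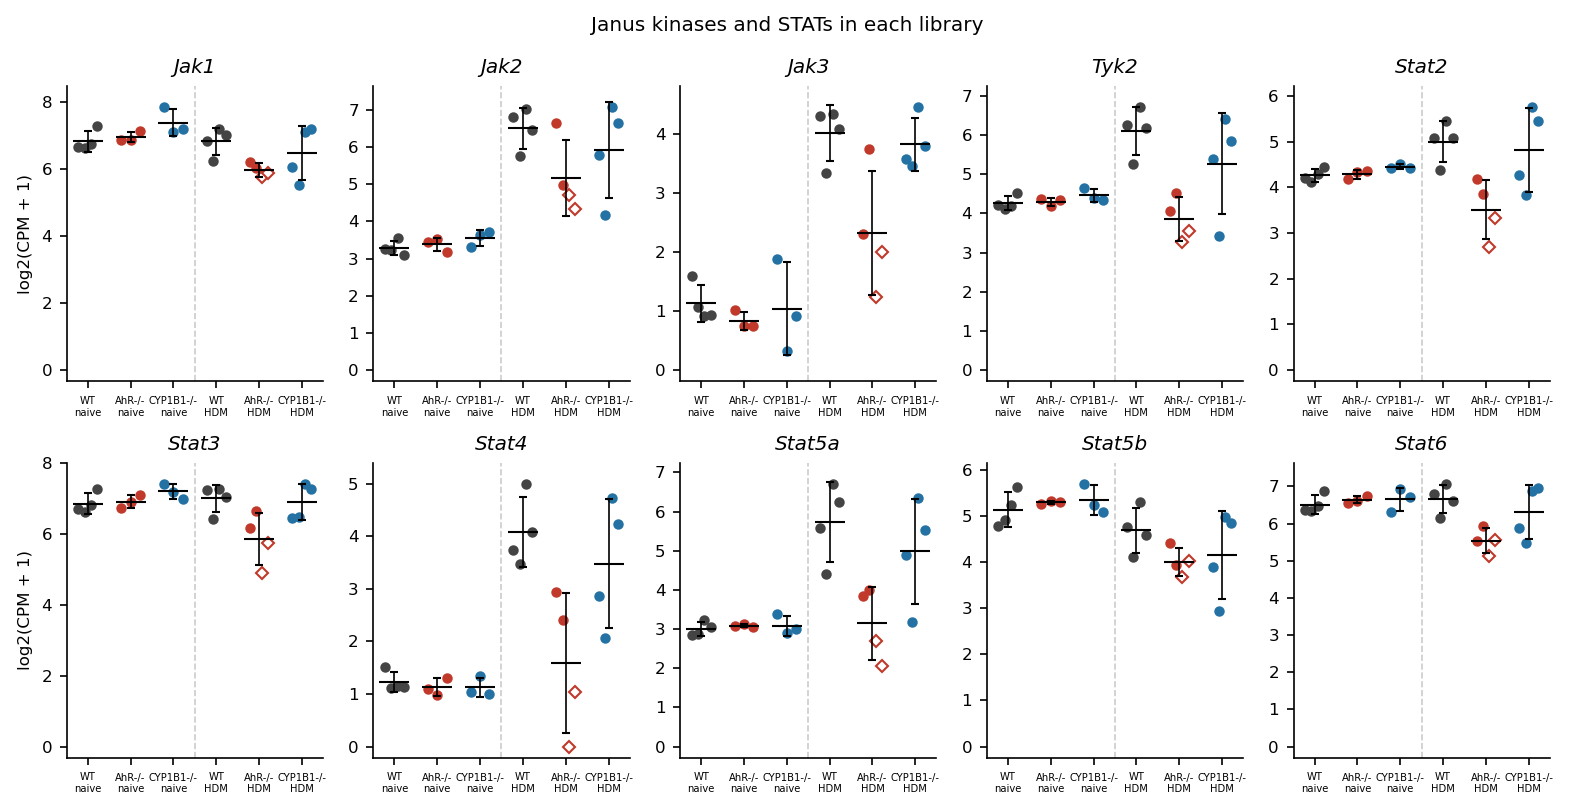
Level of the 4 JAKs and 6 STATs in each library, as log2(CPM + 1), by genotype and state, with the group mean and SD as bars and with open diamonds for AhR-/- HDM libraries 3 and 4. Tyk2 and Stat5a are high in WT HDM libraries (37 to 104 and 20 to 104 CPM) and lower in AhR-/- HDM libraries (8.64 to 22 and 3.18 to 15 CPM), while CYP1B1-/- HDM libraries spread over both ranges.

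Of 14 inhibitors 2 were called higher and 3 lower in AhR-/- HDM libraries, near the shares of all genes (9.22% and 12.9%). Pias4 (chr10:81153266-81167923), a SUMO ligase that restrains STATs, was at 11.7, 10.7, 10.2 and 9.17 CPM in WT HDM and at 6.34, 6.44, 3.18 and 5.12 CPM in AhR-/- HDM libraries, without overlap (-0.96 ± 0.23, adjusted p = 0.0261). Its log2 difference with the leukocyte marker level in the model was -0.95, at an adjusted p of 0.774. Ptpn6 was at 242, 82.5, 257 and 155 CPM in WT HDM and at 53, 52.4, 12.3 and 21.2 CPM in AhR-/- HDM libraries (-2.37 ± 0.62, adjusted p = 0.0282), and Socs1 was called lower too (-2.06). With the leukocyte marker level in the model the log2 difference was -0.30 for Ptpn6 and -0.52 for Socs1 (adjusted p = 0.837 and 0.791). Pias1 (chr9:62878368-62987924), a relative of Pias4, was higher, at 175, 78.6, 243 and 238 CPM in AhR-/- HDM against 77, 72.1, 84.8 and 55.9 CPM in WT HDM libraries (1.35 ± 0.36, adjusted p = 0.0282). Socs5, known to limit EGF receptor and IL-4 signaling, was at 21.4, 9.62, 19.6 and 20.1 CPM against 10.6, 8.37, 8.37 and 6.54 CPM in WT HDM libraries (1.06 ± 0.28, adjusted p = 0.0277). For both genes that were higher, AhR-/- HDM library 2 fell inside the WT range while the other AhR-/- HDM libraries lay above it.

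The leukocyte markers moved with these differences. The mean log2 CPM of the 14 markers was 7.73, 6.50, 8.16 and 7.55 in WT HDM, 5.83, 5.95, 3.44 and 3.23 in AhR-/- HDM and 6.44, 3.99, 8.12 and 7.79 in CYP1B1-/- HDM libraries. With this level in the model all 22 called members kept their direction, 2 of them at an unadjusted p under 0.05, with a median log2 difference of -0.40 in place of -1.91. For the 9 called members used mainly by leukocytes the median went from -2.37 to -0.39, and for the other 13 from -1.05 to -0.41. The marker level was lower in all AhR-/- HDM libraries than in any WT HDM library, so these groups are separated by marker level as well as by genotype, and the part of either cannot be told apart in full.

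**Figure D5:**
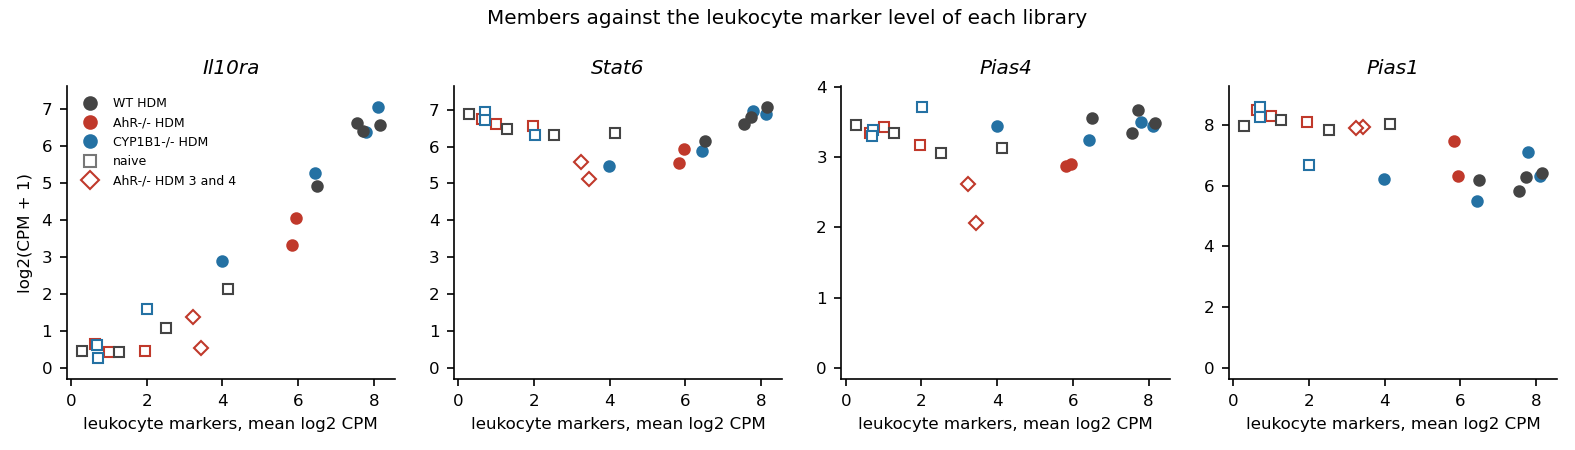
Level of Il10ra, Stat6, Pias4 and Pias1 in each library, as log2(CPM + 1) on the y axis, against the mean log2 CPM of the 14 leukocyte markers on the x axis; colors mark genotype (WT dark grey, AhR-/- red, CYP1B1-/- blue), filled circles HDM, open squares naive and open diamonds AhR-/- HDM libraries 3 and 4. Libraries with a marker level below 5 are the naive ones, AhR-/- HDM libraries 3 and 4 (3.44 and 3.23) and CYP1B1-/- HDM library 2 (3.99).

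No member passed the test for deletion of CYP1B1. In HDM libraries 0 of 45 members differed between CYP1B1-/- and WT by edgeR's quasi-likelihood test (background 0%), 0 had an unadjusted p under 0.05 (background 1.65%), and edgeR's likelihood ratio test, DESeq2 and limma voom also called 0. The median log2 difference of the members was -0.15. The lowest p belonged to Cish, at 28.5, 28.5, 42.6 and 22.2 CPM in CYP1B1-/- HDM against 47, 33.7, 84.8 and 35.5 CPM in WT HDM libraries (-0.64 ± 0.30, adjusted p = 0.999; -0.30 without WT HDM library 3). Osmr was at 29.6, 40.1, 13.3 and 26.4 CPM against 19.1, 19.5, 10.3 and 13.5 CPM (0.87 ± 0.52), and Tyk2 at 40.6, 9.8, 84.7 and 56.5 CPM (-0.57 ± 0.46, and -0.25 to -0.90 with 1 library left out). All of these ranges overlapped with WT. CYP1B1-/- HDM libraries were themselves spread, with Stat6 at 58.3, 43.8, 117 and 124 CPM and Il10ra at 37.2, 6.34, 131 and 82.1 CPM, low for both genes in libraries 1 and 2, where Gm10800 took 64.6 and 68.2% of the counts against 16.1 and 23.6% in libraries 3 and 4; its part in the spread was not tested.

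Between the knockouts after HDM, 0 of 45 members passed (background 0.00706%), but 26 had an unadjusted p under 0.05 (background 29.9%), 3 higher and 23 lower in AhR-/- than in CYP1B1-/-. The lowest p belonged to Il2ra (-2.12 ± 0.49), Socs5 (1.12 ± 0.28) and Stat2 (-1.44 ± 0.37), each at an adjusted p of 0.0638. Il2ra was at 4.87, 1.44, 11.3 and 10.4 CPM, Socs5 at 6.13, 10.1, 7.35 and 8.08 CPM and Stat2 at 18.2, 13.3, 53.2 and 42.6 CPM in CYP1B1-/- HDM libraries. The ranges of the knockouts overlapped for these 3 genes. Pias4 did not overlap, at 8.48, 9.8, 9.81 and 10.3 CPM in CYP1B1-/- HDM libraries (-0.87 ± 0.23, adjusted p = 0.0638). Other tests called 21 (edgeR's likelihood ratio test), 23 (DESeq2) and 29 (limma voom) members.

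In naive mice no member passed the test between genotypes. Of 43 tested, 0 passed in AhR-/- against WT (background 0%), and 0 had an unadjusted p under 0.05 (background 1.69%). The lowest p belonged to Il10ra, at 0.359, 0.345 and 0.554 CPM in AhR-/- against 3.34, 1.11, 0.339 and 0.368 CPM in WT naive libraries (-1.68 ± 0.93), to Il4ra, at 29.8, 35.2 and 29.8 CPM (-0.26 ± 0.15), and to Csf2rb, at 1.26, 0.977 and 0.615 CPM against 4.12, 2.16, 0.948 and 0.598 CPM (-1.09 ± 0.73), all at an adjusted p of 1. Il10ra and Csf2rb were highest in WT naive library 1, which also had the highest leukocyte marker level of the naive libraries (4.14). Without that library the log2 difference of Csf2rb was -0.38. In CYP1B1-/- against WT naive mice 0 of 43 passed (background 0.0129%) and 3 had an unadjusted p under 0.05 (background 5.8%). These were Il6ra, the IL-6 receptor, at 258, 61.8 and 54.3 CPM against 33.3, 51.6, 35.1 and 55.2 CPM (1.48 ± 0.46), Jak1, at 228, 136 and 145 CPM (0.52 ± 0.22), and Il7r, at 1.35, 1.37 and 2.24 CPM against 5.07, 3.46, 2.91 and 1.29 CPM (-1.04 ± 0.45), all at an adjusted p of 0.822. For Il6ra and Jak1 the highest value was that of CYP1B1-/- naive library 2, which also had the highest Gm10800 share (29.2%) and the lowest share of mitochondrial counts (0.0907%, against 0.771 to 1.44%) of the naive libraries. A chi-square of its counts over genes against each other naive library was 85.3 to 171 per degree of freedom, against 7.58 to 48.9 among the others. Without it the log2 differences were 0.32 for Il6ra and 0.22 for Jak1. That of Il7r was -0.68 without WT naive library 1.

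Whether the genotypes responded differently to HDM was tested as the difference of the knockout effect between HDM and naive mice. For AhR-/- 0 members passed (background 0%, lowest adjusted p = 0.149), and 18 had an unadjusted p under 0.05 (background 18.3%), among them Tyk2 (-2.34 ± 0.60), Stat5a (-2.75 ± 0.76) and Pias4 (-1.0 ± 0.32). Other tests called 2 (edgeR's likelihood ratio test), 9 (DESeq2) and 32 (limma voom), and the quasi-likelihood test called 4 without the 5 HDM libraries with most Gm10800 reads (Tyk2, Stat5a, Ptpn6 and Stat2, each lower). With all libraries, the lists of members called after HDM in WT but not in AhR-/- mice above are therefore not shown to differ by this test. For CYP1B1-/- 0 passed and 2 had an unadjusted p under 0.05 (background 2.3%), with the lowest p for Il6ra (-1.81 ± 0.65, and -0.62 without CYP1B1-/- naive library 2), Il2rg (no value given, for its low counts in naive libraries) and Cish (-0.78 ± 0.43), all at an adjusted p of 1. Without WT HDM library 3 the value of Cish was -0.41.

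Other genes of the pathway were read from fixed lists, whose counts are small and are to be set against 19% higher and 19.4% lower among all genes after HDM in WT mice, and against 9.22% higher and 12.9% lower in AhR-/- against WT HDM libraries; the shares of further receptor chains and of ligands called lower are near these. After HDM in WT mice 5 of 17 further receptor chains were higher and 4 lower (Ghr, the growth hormone receptor, -2.54), and 6 of 10 ligands were higher and 2 lower, among them oncostatin M (Osm, 4.03) and Il10 (3.82). Of 10 genes that STATs are known to induce, 7 were higher and 2 lower, with the kinase gene Pim1 (4.29) and cyclin D1 (Ccnd1, 4.66) among the former. In AhR-/- against WT HDM libraries 1 of 15 receptor chains was higher (Ghr, 1.75) and 3 lower (Csf2rb2, -2.65; Il12rb2, -2.29; Il31ra, -2.06), 1 of 8 ligands was lower (Il15, -1.53), and 3 of 7 further regulators were lower (Sh2b3, -1.87; Cbl, -1.61; Ptpn1, -1.21). Of the 10 STAT-induced genes 4 were lower (Pim1, -2.14; Ccnd3, -1.98; Myc, -1.64; Bcl3, -1.26) and none higher, with a median of -1.37, beside the leukocyte markers, of which 14 of 14 were below 0 in this comparison (median -2.41). With the leukocyte marker level in the model edgeR's quasi-likelihood test called 0 of the 10, the unadjusted p was under 0.05 for 1 of them, and the median was -0.29. Pim1 had a mean of 28.8 ± 15.2 CPM (SD, n = 4) in WT HDM, 5.91 ± 5.99 CPM in AhR-/- HDM and 1.48 ± 0.284 CPM in WT naive libraries.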

How the data were processed

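Per the labels and the study's methods, polyadenylated RNA of sorted cells was turned into cDNA by template switching, amplified, tagmented and sequenced. The authors demultiplexed with bcl2fastq 2.19.1, aligned with GSNAP to mouse GRCm38 and deposited counts per gene from featureCounts 2.0.0 in separate tables for naive and HDM libraries, without pooling; strand and multimapping settings are not given in the sources used here. From these counts, protein-coding genes (GENCODE M21) were tested in R 4.3.3 with edgeR 4.0.16 (TMM, filterByExpr with a minimum count of 10, robust quasi-likelihood fit, group as the only term, two-sided, Benjamini-Hochberg over all genes tested, adjusted p at most 0.05), in 3 fits: the 12 HDM libraries, the 10 naive libraries and all 22. CPM used TMM library sizes of all 22 libraries, and fold changes are given as log2 values with standard errors. For the quasi-likelihood test the standard error was derived as the size of the log2 value divided by the square root of its F statistic. limma 3.58.1 and DESeq2 1.42.0 gave alternatives, and the code was tested on simulated data.

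The members and lists were chosen with earlier results of these data known. Named with values in every library were the 12 members of lowest p, at most 4 per class, in the AhR-/- against WT comparison after HDM, the 3 of lowest p in each other comparison, the highest member of each class per length, and the IL-4 with IL-13 and gp130 arms; Lifr and Socs1 were added after their values were seen, and other members are given by log2 difference or call. Replicate numbers were not used as pairs: same-numbered libraries deviated from their group means with correlations of -0.469 to 0.672 in the HDM table and -0.0205 to 0.243 in the naive table. No pair of the 22 libraries agreed within sampling noise (chi-square per degree of freedom of at least 7.58).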

Additional observations from a re-analysis of the deposited data

Results flagged for a closer look

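Of 132 sets of values of a named gene in a group of 4 libraries, 7 held 1 library far from the other 3, where chance gives 6.6 (1 in 20). Il10ra was at 28.9 CPM in WT HDM library 2 against 83.0 to 96.5 CPM in the others, and Socs1 was at 5.58 CPM in the same library against 14.7 to 17.2 CPM. Socs5 was at 9.62 CPM in AhR-/- HDM library 2 against 19.6 to 21.4 CPM. Socs3 was at 72.2 CPM in CYP1B1-/- HDM library 3 against 37.8 to 39.2 CPM. Il6st was at 238 CPM in WT naive library 4 against 172 to 177 CPM. In WT naive library 1, which had the highest leukocyte marker level of the naive libraries, Il21r was at 1.07 CPM against 0.23 to 0.309 CPM and Stat4 at 1.85 CPM against 1.17 to 1.22 CPM.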

How the results depend on the processing

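The 22 members called between AhR-/- and WT HDM libraries became 34 with limma voom, 14 without a low-count filter, and 0 with the replicate block, with the leukocyte marker covariate, with the Y-linked covariate and without the 2 HDM libraries that carry Y-linked reads; leaving out 1 library at a time gave 0 to 24. Under upper-quartile scaling the median of all genes moved from -0.00 to 0.15 and 3 members were higher and 17 lower. Between the knockouts 0 became 21 with the likelihood ratio test, 23 with DESeq2, 29 with limma voom and 0 to 23 with 1 library left out (21 without AhR-/- HDM library 2, 23 without CYP1B1-/- HDM library 2). After HDM against naive, the WT count of 28 became 0 under either covariate and 25 to 30 with 1 library left out. The AhR-/- count of 20 became 10 with the leukocyte covariate, 6 with the Y-linked covariate and 9 to 21 with 1 library left out (13 without AhR-/- HDM library 1, 12, 9 and 9 without AhR-/- naive libraries 1, 3 and 4); without the 2 libraries it was 22. The CYP1B1-/- count of 30 became 0 and 1 under the leukocyte and Y-linked covariates and 24 to 29 with 1 library left out. The AhR-/- difference of effects, 0, became 2 with the likelihood ratio test, 9 with DESeq2, 32 with limma voom and 0 to 10 with 1 library left out (10 without AhR-/- HDM library 2). Counts of 0 for CYP1B1-/- against WT after HDM, for both naive comparisons and for the CYP1B1-/- difference of effects stayed 0 in all settings run. The replicate block changed no other count of calls; the numbers do not mark a shared animal or day. The cause of these changes was not tested.

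Without the 5 HDM libraries with Gm10800 above 50% (chosen after seeing the data), 13 members were called between the knockouts and 4 in the AhR-/- difference of effects in place of 0; the other counts stayed within 1.5 times.

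Of 2540 recomputed values of named members, 1990 kept direction and side of the threshold, 491 lost the call, 37 gained one and 22 changed sign, all 22 under a covariate. With the leukocyte covariate these were Csf2rb between AhR-/- and WT naive (0.011), in WT mice after HDM Tyk2 (-0.0536), Ifngr1 (-0.0125), Il13ra1 (-0.0365), Ifnar2 (-0.29) and Il2rb (-0.20), in AhR-/- mice Csf2rb (-0.27), Il10ra (-0.24), Il7r (-0.23) and Il21r (-0.51), and in CYP1B1-/- mice Ptpn6 (-0.33), Csf2ra (-0.60), Stat5a (-0.49), Ifngr1 (-0.23) and Tyk2 (-0.90). With the Y-linked covariate they were Socs2 (-0.32), Socs3 (-0.28), Osmr (-0.33), Ifnar2 (-0.18) and Il2rb (-0.83) in WT mice and Socs2 (-0.26) and Socs3 (-0.70) in CYP1B1-/- mice. Depth limits Il13ra2, Il22ra1, the genes near the floor in naive libraries, and Il10ra, Crlf2, Socs1, Il2rb and Stat4 in AhR-/- HDM library 3.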
